A study of Mus musculus with 6 samples.

Results

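The genes of glycolysis and of the response to low oxygen were followed in 4T1, a carcinoma line from mouse mammary gland, of which 3 libraries were labelled control and 3 corticosterone-treated. Corticosterone is the main glucocorticoid of rodents. All libraries came from the same unmodified line, the label for the other group reads only control, and neither dose, vehicle nor duration of treatment is stated in the labels. The members were fixed by name: 36 genes, which matched 37 of the 28154 rows of the gene table because Aldoa has 2 rows. They comprised 17 glycolytic enzymes (18 rows), 4 transporters of glucose and lactate, 5 kinases that set the glycolytic rate, 8 genes induced by hypoxia and the 2 hypoxia-inducible factor alpha subunits. All 37 rows passed the filter on low counts.

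Glycolysis converts glucose to pyruvate in the cytosol, and lactate dehydrogenase then reduces pyruvate to lactate, which leaves the cell by monocarboxylate transporters. Hypoxia-inducible factor 1 (HIF-1), a dimer of an oxygen-labile alpha subunit and the constant partner Arnt, binds a short core sequence in many of these genes and raises their transcription when oxygen is low. Carcinoma cells often run this programme in the presence of oxygen. Glucocorticoids are best known in this field for raising glucose production in liver and for restraining glucose use in muscle and fat.

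Libraries held between 62175495 and 66249288 counts, so that counting error was small for all but the rarest members, and nothing in the labels tells if the replicates were separate cultures, and the spread on which the p-values rest may be technical. The treatment label was checked on 5 known targets of the glucocorticoid receptor, Per1, Tsc22d3, Fkbp5, Sgk1 and Klf9, which all rose, with log2 fold changes of 0.77 to 1.75 (edgeR quasi-likelihood test, Benjamini-Hochberg adjusted p = 7.85e-05 to 0.00106). The 5 epithelial markers summed to 1373 to 1425 FPKM (a level per transcript length, scaled to the library size) in controls and 1270 to 1496 FPKM with corticosterone. The 5 fibroblast markers summed to 6.89 to 8.86 and 8.14 to 8.94 FPKM, the 5 leukocyte markers to 21.95 to 24.1 and 19.5 to 23.5, and the 4 endothelial markers to 0.204 to 0.286 and 0.0983 to 0.123 FPKM. Most of the leukocyte sum was Cd68, at 18.8 to 23.4 FPKM over all libraries. Ptprc stood at 0.152 to 0.237 and Adgre1 at 0.454 to 0.904 FPKM. The 1 adipocyte marker in the table was listed at 0 in all controls and reached 0.0585 FPKM with corticosterone. Among the markers, Lum, Cd3e, Cdh5, Kdr, Tek and Adipoq were at 0 in at least 1 library and too low to be tested, and none of the 13 markers that were tested changed. Among treated libraries, corticosterone replicate 2 differed most. Ribosomal protein genes held 8.95% of its summed FPKM, against 7.94% and 7.68% in corticosterone replicates 1 and 3 and 8.20% to 8.59% in controls, and leaving it out raised the number of changed genes from 487 of 17283 to 3670 of 17862.

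Of the 37 member rows, 1 fell (Aldoc) and 0 rose with corticosterone (edgeR quasi-likelihood test, Benjamini-Hochberg adjusted p under 0.05), against 2.82% of all tested genes called in either direction (1.35% higher and 1.46% lower). At an unadjusted p under 0.05 there were 9 rows, 4 higher and 5 lower, or 24.3%, against 8.23% of all tested genes higher and 8.80% lower. DESeq2 called 3 higher and 3 lower, where it called 3.64% of all genes higher and 3.84% lower (7.48%), and limma on log2(FPKM + 1) called 0 higher and 3 lower of 34 rows, where it called 1.82% higher and 2.43% lower (4.26%). The count of members called was thus near the background in edgeR. The median log2 fold change was -0.07 for glycolytic enzymes and 0.05 for hypoxia-induced genes, against 0.00 for all tested genes. In 10 of 37 rows the 3 treated libraries did not overlap the 3 controls in CPM (counts scaled to the library size, after TMM adjustment), 5 higher and 5 lower, against 22.2% of all tested genes.

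**Figure D1:**
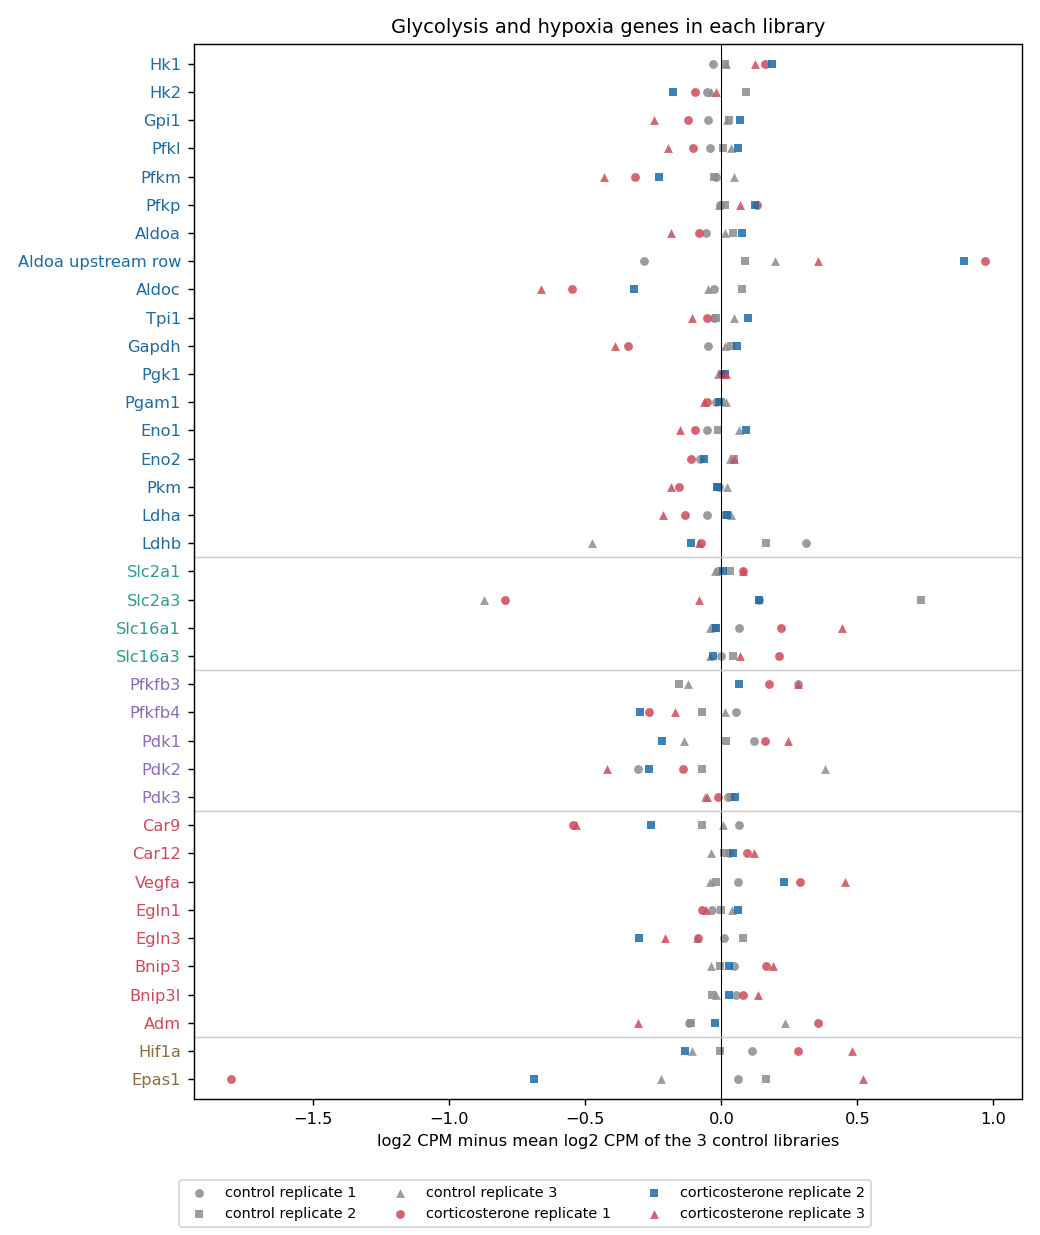
Each row is a member (name coloured by role) and each point a library; the x axis gives its log2 CPM minus the mean log2 CPM of the 3 controls. Aldoc, Car9 and Pfkm lie left of the controls in all 3 treated libraries and Vegfa lies right of them, while corticosterone replicate 2 (blue squares) often lies closer to 0 than the other treated libraries (red).

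The promoters of Aldoc, the member that changed, and of Car9 and Vegfa, the hypoxia-induced members with the lowest p, are shown because their groups did not overlap, Aldoc and Car9 being lower and Vegfa higher with corticosterone. The sequences are RefSeq windows (GRCm38.p6) of 250 bases before to 50 bases after the transcription start, on the gene's strand, and capitals mark the core to which HIF binds, ACGTG or GCGTG on either strand (CACGT or CACGC where it lies on the opposite strand).
Aldoc (chr11:78322823-78323122, + strand): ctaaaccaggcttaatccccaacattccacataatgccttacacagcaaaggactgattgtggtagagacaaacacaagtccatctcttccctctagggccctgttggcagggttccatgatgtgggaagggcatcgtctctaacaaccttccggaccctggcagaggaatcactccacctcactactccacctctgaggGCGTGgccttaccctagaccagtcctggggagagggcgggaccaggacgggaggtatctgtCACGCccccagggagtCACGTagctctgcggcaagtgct
Car9 (chr4:43506776-43507075, + strand): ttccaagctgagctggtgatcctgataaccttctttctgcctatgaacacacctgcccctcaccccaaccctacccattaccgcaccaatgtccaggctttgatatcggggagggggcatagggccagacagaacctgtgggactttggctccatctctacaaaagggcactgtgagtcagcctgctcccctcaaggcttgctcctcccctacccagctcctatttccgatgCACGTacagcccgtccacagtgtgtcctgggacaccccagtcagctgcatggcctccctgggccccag
Vegfa (chr17:46032328-46032627, - strand): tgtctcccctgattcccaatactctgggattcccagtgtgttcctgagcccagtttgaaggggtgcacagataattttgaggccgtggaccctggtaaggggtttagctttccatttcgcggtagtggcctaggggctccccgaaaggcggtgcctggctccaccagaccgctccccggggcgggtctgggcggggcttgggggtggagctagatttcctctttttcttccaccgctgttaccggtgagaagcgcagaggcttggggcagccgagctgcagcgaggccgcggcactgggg
The Aldoc window held 3 matches, the Car9 window 1, which began 18 bases before the start, and the Vegfa window 0. Sequence outside these windows was not searched, so a window with 0 matches does not mean a gene without the core. Of the 36 genes, 33 had a window in this set, and where a gene had several the one nearest the gene's 5′ end in the table was taken. The core was found in 25 of these 33 windows (75.8%), in 11 of 17 for glycolytic enzymes and in 5 of 7 for hypoxia-induced genes, against 43.8% of all 32851 windows. The members' windows were also richer in G and C (median 62.3%, against 52.7% over all windows), and the core contains a CG pair. A receptor half-site, AGAACA on either strand, was found in 5 of 33 member windows, against 19.0% of all windows, and in none of the 3 shown. A match describes letters only, and no binding was measured here.

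Among the enzymes, Aldoc, the aldolase isoenzyme best known from brain, was the one that fell. It measured 64.9, 69.9 and 64.1 CPM in control replicates 1, 2 and 3 and 45.3, 53.0 and 41.9 CPM in corticosterone replicates 1, 2 and 3. The groups did not overlap, and replicate 2 was the highest library in each. The log2 fold change was -0.51 (SE 0.09), from 66.3 ± 3.12 to 46.7 ± 5.70 CPM (SD, n = 3; edgeR quasi-likelihood test, Benjamini-Hochberg adjusted p = 0.0264). The gene lies on chromosome 11, 78322968 to 78327781 (GRCm38, + strand), and shared no exon bases with genes on the other strand. In bulk RNA, fewer cells of a type and less RNA per cell cannot be told apart. The call was lost when any library other than corticosterone replicate 2 was left out (edgeR, highest adjusted p = 0.160, without control replicate 2).

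Aldoa, the main aldolase of these cells, did not pass, with a log2 fold change of -0.06 (SE 0.07) at a level of 560 ± 19.0 FPKM in controls. The table holds a second Aldoa row, ENSMUSG00000114515, immediately upstream on the same strand (chromosome 7, 126800790 to 126809108, against 126795234 to 126800751 for the main row). That upstream row had 84, 112 and 121 counts in controls and 199, 196 and 135 with corticosterone. Every treated library was above every control, but the log2 fold change of 0.75 (SE 0.22) did not pass (edgeR, Benjamini-Hochberg adjusted p = 0.136, and 0.0427 with DESeq2). At 1.80 FPKM in controls it was a small fraction of the aldolase A signal.

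Phosphofructokinase, which makes the first committed step of glycolysis, has liver, muscle and platelet subunits, encoded by Pfkl, Pfkm and Pfkp. Pfkm, the muscle subunit, measured 37.2, 37.0 and 38.8 CPM in controls and 30.2, 32.1 and 27.9 CPM with corticosterone. The treated libraries lay below all controls, with a log2 fold change of -0.33 (SE 0.07) that missed the threshold in edgeR (Benjamini-Hochberg adjusted p = 0.0623) and passed with DESeq2 (adjusted p = 0.00197) and limma (adjusted p = 0.0374). A same-strand gene, Gm26513, covers 10.2% of the Pfkm exon bases, so its counts are uncertain. Pfkp, the platelet subunit, measured 152, 154 and 152 CPM in controls and 167, 166 and 160 CPM with corticosterone. These groups did not overlap either, and the log2 fold change of 0.11 (SE 0.05) did not pass (edgeR, adjusted p = 0.291). Pitrm1 on the other strand covers 5.58% of the Pfkp exon bases, so the Pfkp counts are uncertain to that extent. Pfkl, the most abundant subunit per length (79.1 ± 1.81 FPKM in controls), had a log2 fold change of -0.08 (SE 0.07).

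Hexokinase traps glucose in the cell by phosphorylation, and its isoenzymes had values of opposite sign. Hk1 measured 206, 212 and 212 CPM in controls and 235, 239 and 229 CPM with corticosterone, a log2 fold change of 0.16 (SE 0.05) that did not pass in edgeR (adjusted p = 0.142) but did with DESeq2 (adjusted p = 0.0256). All treated libraries were above all controls. Hk2, the isoenzyme usually tied to tumour growth, had a log2 fold change of -0.10 (SE 0.07) with overlapping groups. Hk1 shares 1.84% of its exon bases with an antisense gene, Hk1os.

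The most abundant enzymes beside Aldoa, most of them of later steps, did not pass over all 6 libraries. In controls the levels were 594 ± 5.55 FPKM for Pkm (pyruvate kinase), 547 ± 16.0 for Ldha, the main lactate dehydrogenase subunit, and 479 ± 5.54 for Pgk1 (phosphoglycerate kinase). Pgam1 (phosphoglycerate mutase), Eno1 (enolase) and Tpi1 (triose phosphate isomerase) followed at 273 ± 2.34, 261 ± 9.53 and 259 ± 6.22 FPKM, of which Eno1 and Tpi1 did not differ beyond their spread. Gpi1, the glucose phosphate isomerase, stood at 105 ± 2.81 FPKM. Pgk1 was the steadiest enzyme, with 1223, 1217 and 1206 CPM in controls, 1217, 1227 and 1229 CPM with corticosterone, and a log2 fold change of 0.01 (SE 0.04). None of Pkm (-0.12), Ldha (-0.11), Gpi1 (-0.10), Eno1 (-0.05), Pgam1 (-0.04) and Tpi1 (-0.02) passed in edgeR, DESeq2 or limma (log2 fold changes over all libraries). Counts of Gpi1 and Pkm are uncertain too, since Gm26762 on the other strand covers 11.5% of the Gpi1 exon bases and Gm49759 on the same strand 15.3% of those of Pkm. Pkm measured 3343, 3331 and 3415 CPM in controls and 3017, 3327 and 2957 CPM with corticosterone, so that corticosterone replicate 2 lay just under the lowest control. Ldhb and Eno2, minor copies among the members, stood at 2.21 ± 0.605 and 3.38 ± 0.148 FPKM in controls. Their log2 fold changes were -0.13 (SE 0.20) and -0.04 (SE 0.08). Eno3, an enolase outside the members, stood at 42.8 ± 0.833 FPKM in controls. Its log2 fold change of -0.11 (SE 0.07) did not pass (edgeR, adjusted p = 0.440).

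Gapdh, the glyceraldehyde phosphate dehydrogenase often used as a constant reference, was listed at 16.9 ± 0.473 FPKM in controls, far under its neighbours in the pathway. In all, 25.1% of the 50-base stretches of its transcripts occur in transcripts of 223 other genes, 213 of them pseudogenes (GENCODE M21), and how shared reads were counted is not stated in labels or headers. The part of this in the low level was not tested: Pgk1 shares 53.9% of its stretches, but with 5 genes. Gapdh measured 76.6, 81.0 and 79.9 CPM in controls and 62.4, 82.3 and 60.4 CPM with corticosterone. Corticosterone replicates 1 and 3 were below all controls and replicate 2 above them, and the log2 fold change of -0.21 (SE 0.11) did not pass (edgeR, adjusted p = 0.388, and 0.00182 without corticosterone replicate 2, with a value of -0.37). Without corticosterone replicate 3 it was -0.13 (edgeR, adjusted p = 0.738). Bnip3, Pgam1, Eno1, Pkm, Ldhb and Bnip3l also share over 20% of their stretches with other genes, so their absolute levels are uncertain.

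**Figure D2:**
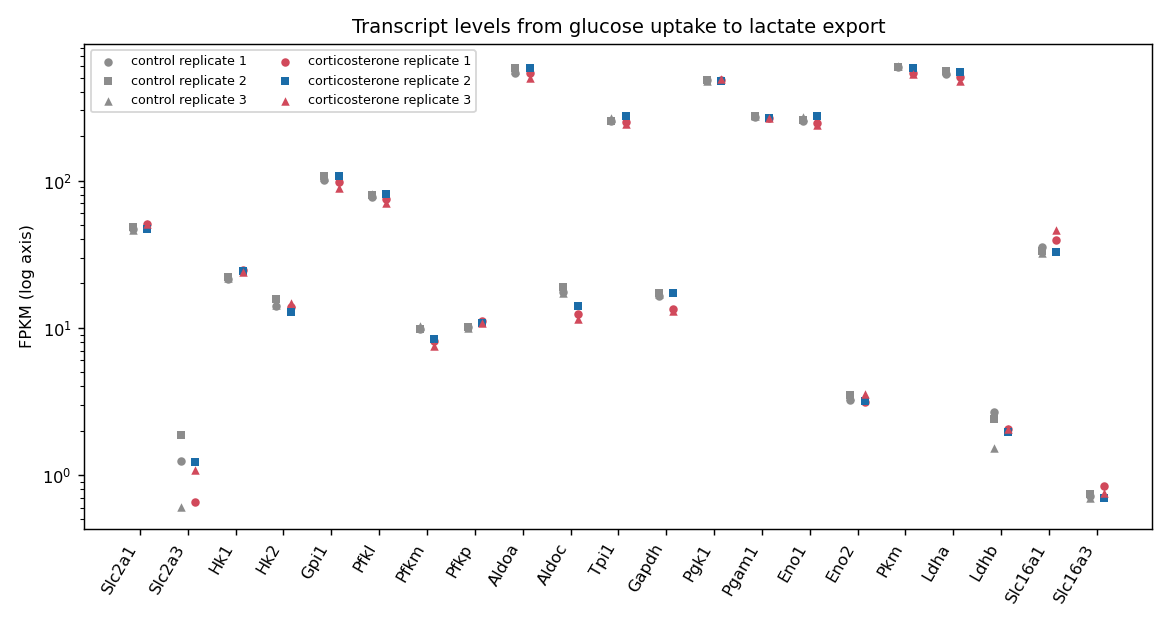
FPKM (log axis) of the transporters and enzymes in the order glucose and its products pass them; grey points are the 3 controls, red points corticosterone replicates 1 and 3 and blue squares corticosterone replicate 2. Pkm, Aldoa, Ldha and Pgk1 stand near 500 FPKM, while Gapdh stands near 17 FPKM.

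The enzymes as a group held 0.983 ± 0.00564% of summed FPKM in controls and 0.982 ± 0.00652% with corticosterone (SD, n = 3), a difference well within the spread. As a share of counts, in which long transcripts weigh more, they held 1.35 ± 0.0197% and 1.29 ± 0.0687%. Against the control mean, their median log2 level was -0.10 in corticosterone replicate 1, -0.13 in replicate 3 and 0.04 in corticosterone replicate 2, against -0.04, 0.02 and 0.02 in control replicates 1, 2 and 3. By this median the treated libraries lay on both sides of the controls. Without mitochondrial and ribosomal protein genes in the sum, the enzymes held 1.2266%, 1.2347% and 1.2251% of FPKM in controls. With corticosterone they held 1.2166%, 1.2250% and 1.1907%. All treated libraries were then below all controls, corticosterone replicate 2 only just below the lowest. Of the 18 rows, 4 had log2 fold changes above 0 and 14 below.

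Shares within each isoenzyme family do not depend on how a library is scaled, and 13 were compared in FPKM. A family here holds only its genes among the members. Genes such as Eno3 (42.8 FPKM in controls), Pfkfb1 (1.27) and Pfkfb2 (1.16) are thus not counted in these sums. In 5 of them the groups did not overlap, 1 higher and 4 lower with corticosterone. By CPM, the groups did not overlap in 22.2% of all tested genes. That figure is for single genes, and none was computed for shares, so the comparison is not like for like. Shares within the same family depend on each other, so those of Pfkm and Pfkp are not separate results. Aldoc held 3.16%, 3.18% and 2.98% of aldolase (Aldoa and Aldoc) in controls and 2.27%, 2.37% and 2.25% with corticosterone. Pfkm held 10.2%, 9.83% and 10.1% of the phosphofructokinase subunits in controls and 8.61%, 8.33% and 8.49% with corticosterone. In both families corticosterone replicate 2 lay with the other treated libraries. The Pfkp share was higher with corticosterone, from 10.1 ± 0.248% to 11.6 ± 0.735% (SD, n = 3). Hk2 held 39.8%, 41.5% and 39.3% of hexokinase 1 and 2 in controls and 34.3% to 37.8% with corticosterone. Each of these 5 shares had p = 0.1, the smallest that 3 libraries against 3 allow (exact permutation test, two-sided), and 0.26 after Benjamini-Hochberg adjustment over the 13. The other 8 shares overlapped between groups, with Ldhb at 0.405 ± 0.119% of lactate dehydrogenase in controls and 0.398 ± 0.0355% with corticosterone.

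**Figure D3:**
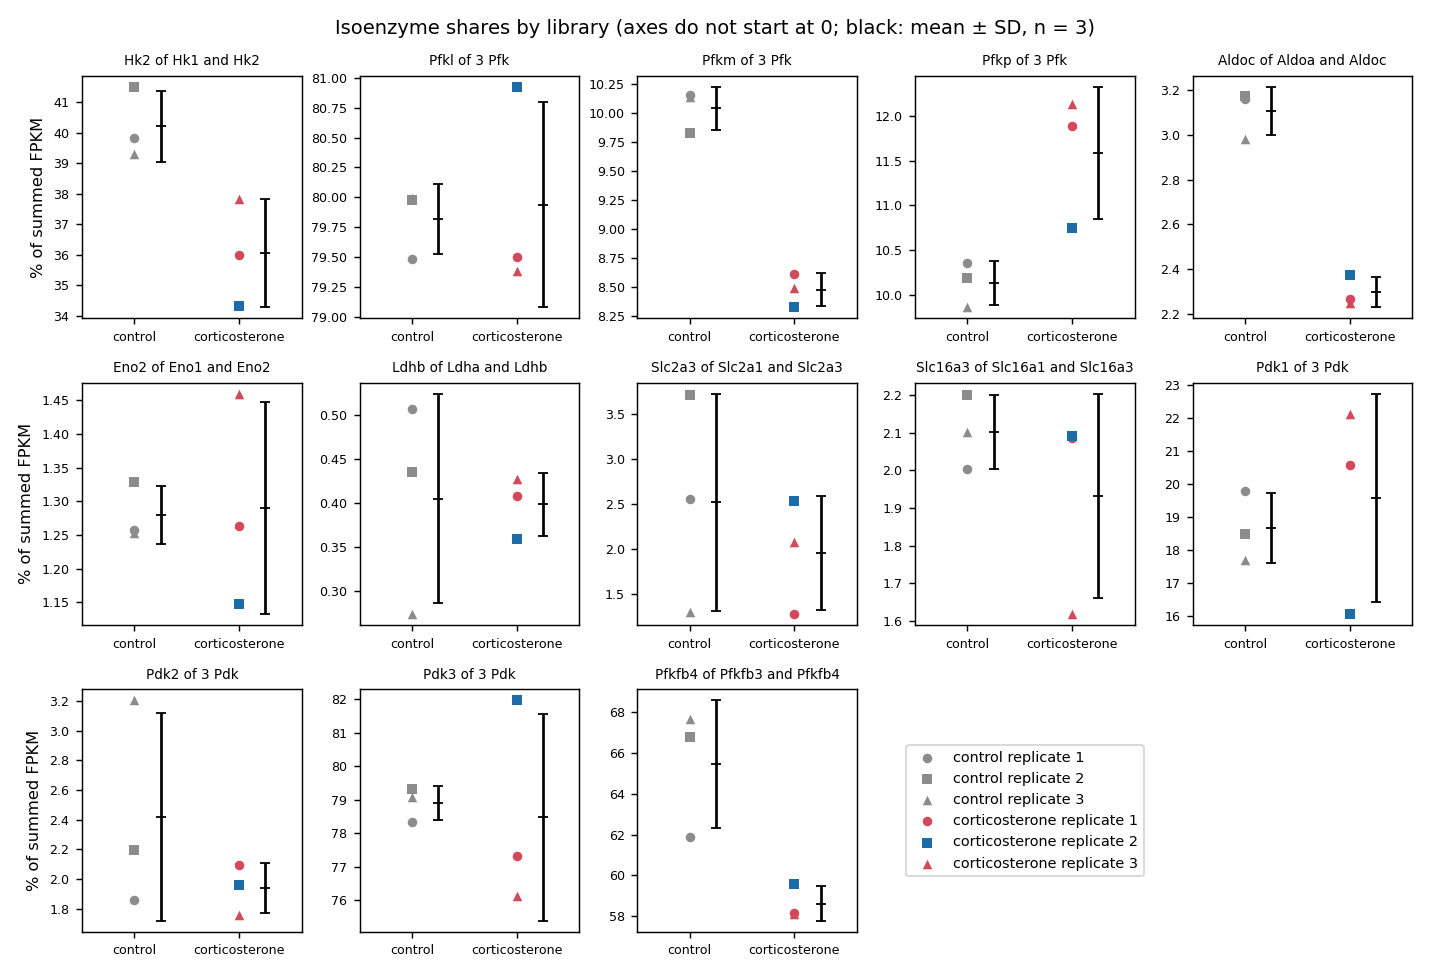
Each panel gives the percent that 1 member held of the summed FPKM of its family, counting only genes among the members. Points are libraries (grey controls, red corticosterone replicates 1 and 3, blue corticosterone replicate 2). Black bars give the mean ± SD of 3 libraries, on axes that do not start at 0. The groups separate for Hk2, Pfkm, Pfkp, Aldoc and Pfkfb4 and overlap in the other 8 panels.

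Slc2a1 and Slc16a1 were the abundant transporters in both groups. Slc2a1 (GLUT1), the basal glucose importer, stood at 47.3 ± 1.09 FPKM in controls and 49.4 ± 2.14 FPKM with corticosterone, and Slc16a1 (MCT1), a lactate carrier, at 33.5 ± 1.45 and 39.4 ± 6.80 FPKM. Slc2a3 (GLUT3) and Slc16a3 (MCT4), the carrier usually induced by HIF-1, were rare, at 1.24 ± 0.630 and 0.719 ± 0.0232 FPKM in controls. None passed in edgeR or DESeq2, nor in limma, where Slc16a3 was too low to be tested, and at an unadjusted p under 0.05 in edgeR there were 0. Slc16a1 measured 176, 165 and 163 CPM in controls and 195, 165 and 228 CPM with corticosterone. Corticosterone replicates 1 and 3 were above all controls and replicate 2 among them (log2 fold change 0.22, SE 0.11; edgeR, adjusted p = 0.325, and 0.00893 without corticosterone replicate 2). Without corticosterone replicate 3 its value was 0.11 (edgeR, adjusted p = 0.686). Slc2a3 varied most in controls among all members, with 10.1, 15.3 and 5.03 CPM, and its sign turned when control replicate 2 was left out (-0.34 to 0.09 on the log2 scale).

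Of the kinases that set the glycolytic rate, Pfkfb3 and Pfkfb4 make fructose 2,6-bisphosphate, the activator of phosphofructokinase. The Pdk kinases inhibit pyruvate dehydrogenase, the mitochondrial enzyme complex that acts on pyruvate. Pfkfb4 measured 13.9, 12.7 and 13.5 CPM in controls and 11.1, 10.8 and 11.9 CPM with corticosterone. The groups did not overlap, and the log2 fold change of -0.25 (SE 0.09) did not pass (edgeR, adjusted p = 0.200). Pfkfb3 had a value of 0.16 (SE 0.13) with overlapping groups, and the Pfkfb4 share of both lay under the control range, going from 65.4 ± 3.12% to 58.6 ± 0.843%. Pdk3 was the main pyruvate dehydrogenase kinase, at 26.1 ± 1.04 FPKM in controls and 26.1 ± 0.589 FPKM with corticosterone. Pdk1, a classical HIF-1 target, stood at 6.17 ± 0.573 FPKM in controls (log2 fold change 0.07, SE 0.12) and Pdk2 at 0.792 ± 0.194 FPKM (-0.30, SE 0.21). None of the 5 kinases passed in edgeR or DESeq2, nor in limma, where Pdk2 was too low to be tested, with 1 at an unadjusted p under 0.05 in edgeR (Pfkfb4).

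The hypoxia-induced genes had values of both signs, 5 above 0 and 3 below. Car9, the membrane carbonic anhydrase that is among the most used markers of hypoxia, measured 27.8, 25.3 and 26.6 CPM in controls and 18.2, 22.2 and 18.3 CPM with corticosterone. Its treated libraries were all below the controls, with corticosterone replicate 2 the nearest to them. The log2 fold change of -0.44 (SE 0.10) missed the threshold (edgeR, Benjamini-Hochberg adjusted p = 0.0549) and passed with DESeq2 (adjusted p = 0.0011) and limma (adjusted p = 0.0340). Car9 lies on chromosome 4, 43506966 to 43513729 (+ strand), and 9.29% of its exon bases overlap Gm12454 on the other strand. Since no label or header states strandedness, its counts are uncertain to that extent.

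Vegfa, the angiogenic growth factor, had a value of the opposite sign, with 47.9, 45.2 and 44.6 CPM in controls and 56.0, 53.8 and 62.9 CPM with corticosterone. All treated libraries were above all controls. The log2 fold change of 0.33 (SE 0.07) missed the threshold in edgeR (adjusted p = 0.0635) and in limma (adjusted p = 0.0709) and passed with DESeq2 (adjusted p = 0.00342). Vegfa lies on chromosome 17, 46016993 to 46032369 (- strand). Car9 and Vegfa, both used as readouts of HIF activity, thus differed in sign in these libraries.

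Egln3 (PHD3), an oxygen-sensing prolyl hydroxylase that HIF itself induces, measured 68.4, 71.9 and 63.9 CPM in controls and 64.0, 55.2 and 58.9 CPM with corticosterone (log2 fold change -0.20, SE 0.07; edgeR, adjusted p = 0.235). Its groups met at the lowest control and the highest treated library. Egln1 (PHD2), the main hydroxylase acting on HIF-1 alpha, had a value of -0.02 (SE 0.06). The mitophagy receptors Bnip3 and Bnip3l had values of 0.13 (SE 0.06) and 0.08 (SE 0.05), and Car12, a second membrane carbonic anhydrase, one of 0.09 (SE 0.06) with groups that did not overlap. Gm45507 on the other strand covers 22.25% of the Bnip3 exon bases, so its counts are uncertain. Adm, which encodes the vasodilator adrenomedullin, was rare, at 3.31, 3.32 and 4.23 CPM in controls and 4.60, 3.54 and 2.91 CPM with corticosterone. None of the 8 passed in edgeR, and 3 had an unadjusted p under 0.05 (Car9, Vegfa and Egln3). DESeq2 called Car9 and Vegfa, and limma Car9.

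Among the alpha subunits, whose activity is set mainly by protein stability, Hif1a was the more abundant. It measured 121, 112 and 104 CPM in controls and 136, 102 and 156 CPM with corticosterone. Corticosterone replicates 1 and 3 were above all controls and replicate 2 below them. The log2 fold change was 0.23 (SE 0.14; edgeR, adjusted p = 0.454), and 0.38 without corticosterone replicate 2 (adjusted p = 0.00853) but 0.09 without corticosterone replicate 3 (edgeR, adjusted p = 0.859). Gm15283 on the other strand covers 5.60% of its exon bases. Epas1 (HIF-2 alpha) had 38, 42 and 32 counts in controls and 10, 23 and 54 with corticosterone, and the treated libraries lay on both sides of the controls. Its log2 fold change was -0.37 (SE 0.54), and ran from -1.16 without corticosterone replicate 3 to 0.03 without corticosterone replicate 1. Neither passed in edgeR or DESeq2 over all libraries, nor Hif1a in limma, where Epas1 was too low to be tested, with 0 at an unadjusted p under 0.05 in edgeR.

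Leaving out corticosterone replicate 2 brought the member calls from 1 to 13 of 37 rows, while 20.5% of all tested genes were then called (edgeR). Of the 18 enzyme rows, 7 fell (Gpi1, Pfkl, Pfkm, Aldoc, Gapdh, Pkm and Ldha) and Hk1 rose. Of the others Slc16a1, Vegfa, Bnip3 and Hif1a rose and Car9 fell. Log2 fold changes of the called enzymes ran from -0.61 (Aldoc) to 0.14 (Hk1), and the median of the enzymes went from -0.07 to -0.12. When corticosterone replicate 3 was left out instead, 0 of the 37 rows were called, against 1.34% of all tested genes (edgeR). The median of the enzymes was then -0.02. Corticosterone replicate 2 was the treated library nearest the control mean in 23 of 37 rows (62.2%), against 45.5% of all tested genes, and in 6 of the 8 hypoxia-induced genes. Its share of ribosomal protein transcripts, given above, moved with this, and its part in these calls was not tested.

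**Figure D4:**
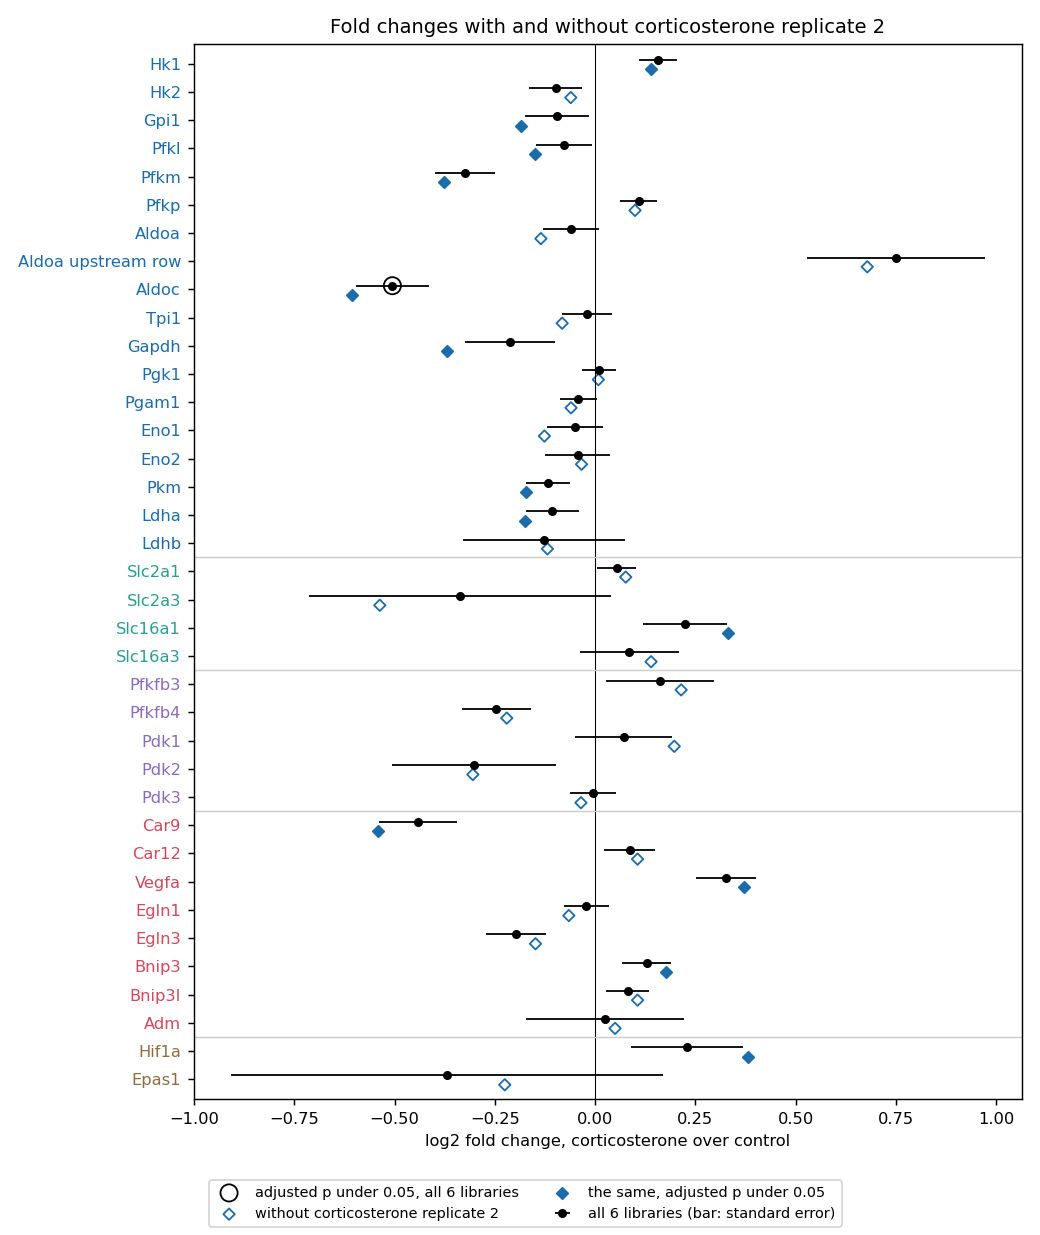
Log2 fold changes (corticosterone over control) of the members: black points with standard errors use all 6 libraries, blue diamonds leave out corticosterone replicate 2, and filled diamonds or a circle mark an adjusted p under 0.05. With all libraries Aldoc alone is circled, and without corticosterone replicate 2 there are 13 filled diamonds.

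Genes of the same pathways outside the members were taken from 6 lists. Of 28 tested other HIF target genes, 2 rose and 1 fell (edgeR, adjusted p under 0.05), which is 10.7% against 2.82% of all tested genes, and the median log2 fold change was 0.12. DESeq2 called 7 higher and 1 lower of the 28, against 7.48% of all genes, and limma 4 higher and 1 lower of 25, against 4.26%. When corticosterone replicate 2 was left out, 12 rose and 2 fell (edgeR), against 20.5% of all genes called. Ndrg1, a stress- and hypoxia-induced gene, went from 555 to 781 CPM (log2 fold change 0.49, SE 0.05; edgeR quasi-likelihood, adjusted p = 0.00359), higher in 3 of 3 treated libraries, and its call held without each library in turn. Stc2, a secreted glycoprotein also induced by endoplasmic reticulum stress, rose by 0.50 (SE 0.09) and Bhlhe40, a transcriptional repressor of the clock system, fell by 0.33 (SE 0.05) on the log2 scale. Leaving out any 1 of the controls, or corticosterone replicate 1, ended the calls of both Stc2 and Bhlhe40 (edgeR, adjusted p up to 0.162 and 0.114). Ddit4, an inhibitor of growth signalling known as a target of both HIF and the glucocorticoid receptor, had a value of 0.22 (SE 0.05) that did not pass in edgeR (adjusted p = 0.0629) but did with DESeq2 (adjusted p = 0.00221) and limma (adjusted p = 0.0405), and every treated library was above every control.

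**Figure D5:**
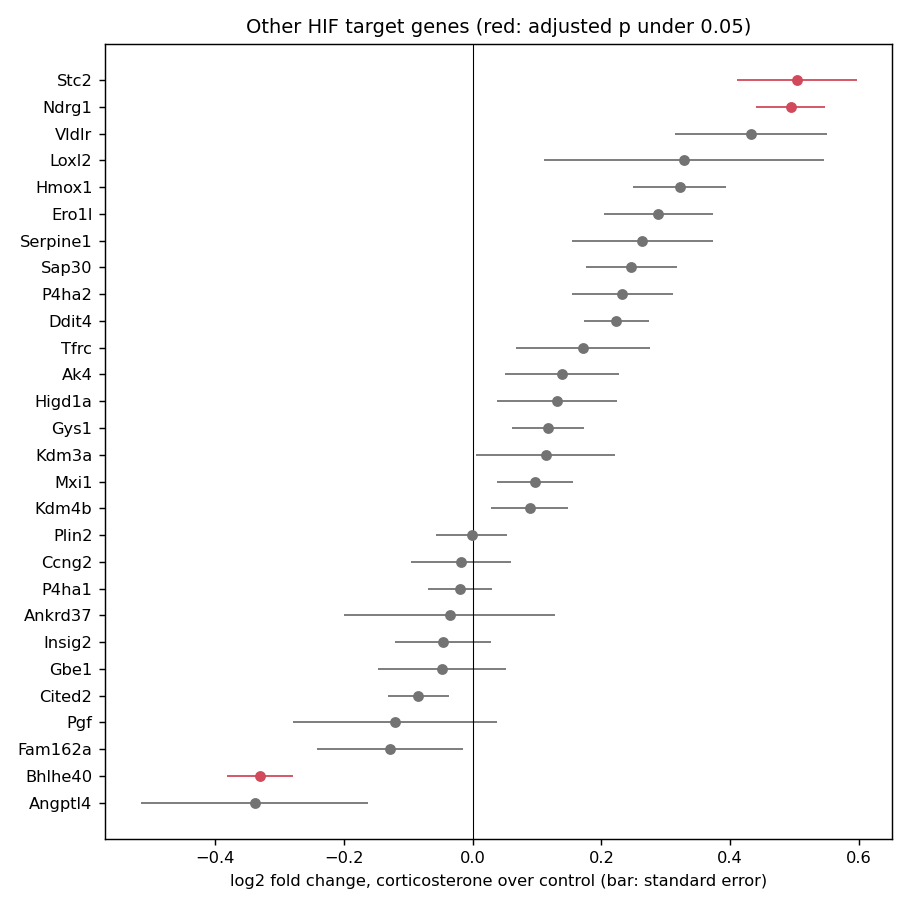
Log2 fold changes (points) with standard errors (bars) of the 28 tested HIF target genes that are not among the members, sorted by value, with red for an adjusted p under 0.05. Stc2 and Ndrg1 lie at the top near 0.50 and Bhlhe40 lies near the bottom at -0.33.

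In gluconeogenesis, the reverse pathway, Pck2, the mitochondrial phosphoenolpyruvate carboxykinase, was the 1 of 2 tested genes that rose, from 83.1 to 119 CPM (log2 fold change 0.52, SE 0.06; edgeR quasi-likelihood, adjusted p = 0.00552), a call lost without control replicate 2 (adjusted p = 0.0611). Of 17 other glycolysis isoenzymes and transporters, 14 HIF partners and degradation factors, 11 genes of pyruvate entry and 8 of the pentose phosphate pathway, 0 passed in edgeR, with 2, 1, 3 and 2 at an unadjusted p under 0.05 (8.23% of all tested genes higher and 8.80% lower). Limma called 0 in these 4 lists, and DESeq2 called 1, the ubiquitin ligase Siah2 (0.24). Without corticosterone replicate 2, edgeR called 2 lower, 2 higher and 2 lower, 2 higher, and 4 lower in these lists, where it called 20.5% of all tested genes. The lowest p in each belonged to Slc16a7 (1.66, SE 0.54, on 4 to 31 counts) and Tigar (0.24), Siah2 and Egln2 (-0.15), Pdp2 (-0.20) and Dld (0.21), and Rpia (-0.16) and Tkt (-0.18), as log2 fold changes. Pdk4, a glucocorticoid-induced kinase in muscle and liver, had 6, 8 and 21 counts in controls and 15, 28 and 10 with corticosterone, and its groups overlapped. Pfkfb2, another bifunctional kinase known as a glucocorticoid target, had a value of 0.17 (SE 0.18).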

How the data were processed

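RNA of 6 libraries was sequenced, and groups were taken from the treatment label. The counts are whole numbers per gene that the authors deposited, in columns that the file headers name as counts, and were taken as not normalized. That table also holds columns that the headers name as FPKM, which were used as deposited. No label or header used here states aligner, counter or strandedness. The submitters' processing notes name the human build GRCh38, but identifiers are mouse: 28086 of 28154 were found in GENCODE M21 (GRCm38), 87.0% with identical coordinates, as had 31 of the 37 member rows, and printed coordinates are the table's. All value columns mapped to a sample.

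Counts were fitted over all genes in edgeR 4.0.16 (R 4.3.3) with TMM scaling, filterByExpr (minimum count 10, minimum total 15), group as the only factor and Benjamini-Hochberg adjustment over 17283 genes. "Rose", "fell" and "changed" mean an adjusted p under 0.05. Alternatives were DESeq2 1.42.0, median ratio scaling, other filters, limma 3.58.1 on log2(FPKM + 1) or log2(FPKM + 0.1) (genes reaching an FPKM of 1 in 3 or more libraries), a replicate block and each library left out. Fold changes from limma understate those of low genes. Libraries of the same number were not paired, since the labels give no pairing. Their deviations from group means hardly correlated (Pearson r across genes of -0.00238, 0.0316 and -0.0664), which cannot show that the cultures were unpaired.

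Members and lists were chosen with earlier results of these data known, so lists are described by counts and medians. Named genes are all members, and of each other list those that passed or else the 2 with the lowest p, plus Pdk4, Pfkfb2 and Ddit4 and the 5 genes of the label check. Eno3 and Pfkfb1 were added after the values were seen. The search for shared 50-base stretches, exon overlaps and the receptor half-site was added after the values were seen. The values of 1 leukocyte marker are not reported here.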

Additional observations from a re-analysis of the deposited data

How the results depend on the processing

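Over all tested genes, 234 rose and 253 fell. DESeq2 called 629 and 664, edgeR with no low count filter 112 and 99, and the replicate block 130 and 107. Leaving out 1 library gave 60 to 1884 higher and 28 to 1786 lower. Among members, 0 rose and 1 fell. DESeq2 called 3 higher and 3 lower. Lower calls numbered 0 of 37 with no low count filter, where 0.749% of all genes were called in either direction. With a mean FPKM of at least 5 there were 3 of 26 lower, where 5.82% of all genes were called. In limma there were 3 of 34 with either pseudocount, where 4.26% (pseudocount 1) and 4.24% (0.1) of all genes were called. Leaving out 1 library gave 0 to 5 higher and 0 to 8 lower members, the highest numbers being those without corticosterone replicate 2. The replicate block kept the 1 lower member (Aldoc, edgeR, adjusted p = 0.0301), while the calls of Bhlhe40 and Stc2 were lost under it (edgeR, adjusted p = 0.0688 and 0.0503). The causes were not tested.

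Medians of the enzymes (-0.12 to -0.02) and of the hypoxia-induced genes (0.02 to 0.08) kept their sign under every alternative run. All alternatives drew on the same libraries. Against the control mean, the median log2 level of the hypoxia-induced genes was 0.036, -0.013 and -0.030 in controls. It was 0.086, 0.028 and 0.032 with corticosterone, so the groups overlapped. The difference in the enzymes' share was -0.00145 percentage points of FPKM and -0.0574 of counts. It was -0.018 without mitochondrial and ribosomal protein genes in the sum, where every treated library was below every control. Leaving out 1 library moved the difference in the share of all FPKM between -0.00507 and 0.00142. The log2 fold change of Slc2a3 ran from -0.66 (without control replicate 3) to 0.0857 (without control replicate 2, the sign reversed). Of the members' values under these alternatives, 6 lost and 23 gained a call. Values near 0 or with a large SE also changed sign, by less than 1 SE, under at least 1 alternative: Aldoa, Tpi1, Eno1, Ldhb, Pdk1, Pdk3, Egln1, Adm and Epas1. Leaving out a library also lowers the number of samples. Epas1, Adm, Pdk2 and the second Aldoa row had few counts and a wide spread between libraries.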
